A study of Mus musculus with 4 samples.

Results

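The genes LYVE1, FOLR2, CD209, CD163L1, MRC1, MERTK, AXL, STAB1, SELENOP and CCL18 were described as surface receptors and secreted proteins of tissue macrophages. They were 10 of the 36601 human genes in the count tables and were picked by symbol, with earlier results of these data known. Human CD45+ cells came from orthotopic tumors of MDA-MB-231, a human breast carcinoma line, in 14 MISTRG mice that carried human CD34+ hematopoietic cells. All mice carry the human IL-3, GM-CSF and M-CSF genes and were irradiated before the human cells were transferred. Of these mice, 7 were untreated and 7 drank water with 300 mg/l of the drug maraviroc, which began on day 21 and lasted 10 days, and tumors of both groups were taken on day 31. The mice were hashtagged and pooled into 2 droplet reactions, with 4 untreated and 3 maraviroc-treated mice in reaction 1 and 3 untreated and 4 maraviroc-treated mice in reaction 2. The treatment of a mouse was read from the name of its hashtag. Which mice share a CD34+ donor is not given in the sources used here, so the p-values measure the spread between mice only.

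Efferocytosis is the uptake of dying cells. MERTK and AXL are receptor tyrosine kinases of the TAM family that bind phosphatidylserine on dying cells through bridging ligands. GAS6 is a bridging ligand of both receptors and PROS1 one of MERTK. STAB1 (stabilin-1) is a scavenger receptor that can bind phosphatidylserine itself. LYVE1, a hyaluronan receptor, and FOLR2, the folate receptor beta, mark perivascular and resident macrophages in many tissues, where SELENOP, a secreted selenium transport protein, is often high as well. CD209 (DC-SIGN) and MRC1 (CD206, the mannose receptor) are lectins for glycans, CD163L1 is a scavenger receptor related to CD163, and CCL18 is a chemokine made by alternatively activated macrophages.

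After assignment to single mice, 19871 cells were kept, with a median of 3020 UMIs (unique transcript counts) in reaction 1 and 9768 in reaction 2. Cells were sorted into classes by UMIs of marker genes that hold none of the 10 genes. Macrophages, defined by complement C1Q UMIs, were 5968 cells, of which 961 were cycling, 232 hypoxic (SLC2A1, ADM, HILPDA), 345 metallothionein-high, 340 interferon-induced (CXCL9, CXCL10, CXCL11), 62 inflammatory (IL1A, CCL20) and 4028 without these state markers. Monocytes were 2044 cells, cDC2 were 213, cDC1 69 and mature dendritic cells 80, and 6083 cells were lymphoid. Macrophage markers outside the gates followed the classes: CD163 stood at 426 CPM (UMIs of a gene per 1000000 UMIs of the class) in macrophages of reaction 1 and 508 in reaction 2, against 156 and 144 in monocytes and 39.9 and 76.0 in cDC2. CSF3R, a neutrophil and monocyte gene, stood at 121 CPM in monocytes of both reactions, against 46.4 and 57.0 in macrophages. CD14 went the other way from CSF3R, at 557 CPM in monocytes and 1601 in macrophages of reaction 1, so it did not set monocytes above macrophages. The reactions differed in composition, with 23.0% of cells of reaction 1 and 3.52% of reaction 2 carrying both lymphoid and myeloid marker UMIs, and these mixed cells were left out. By hashtag, 10631 barcodes of reaction 1 were doublets and 5754 were negative, against 3144 and 375 of reaction 2. The reactions shared 33 of the kept cell barcodes, and the cells that carry them made up 0.332% of those kept.

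**Figure D1:**
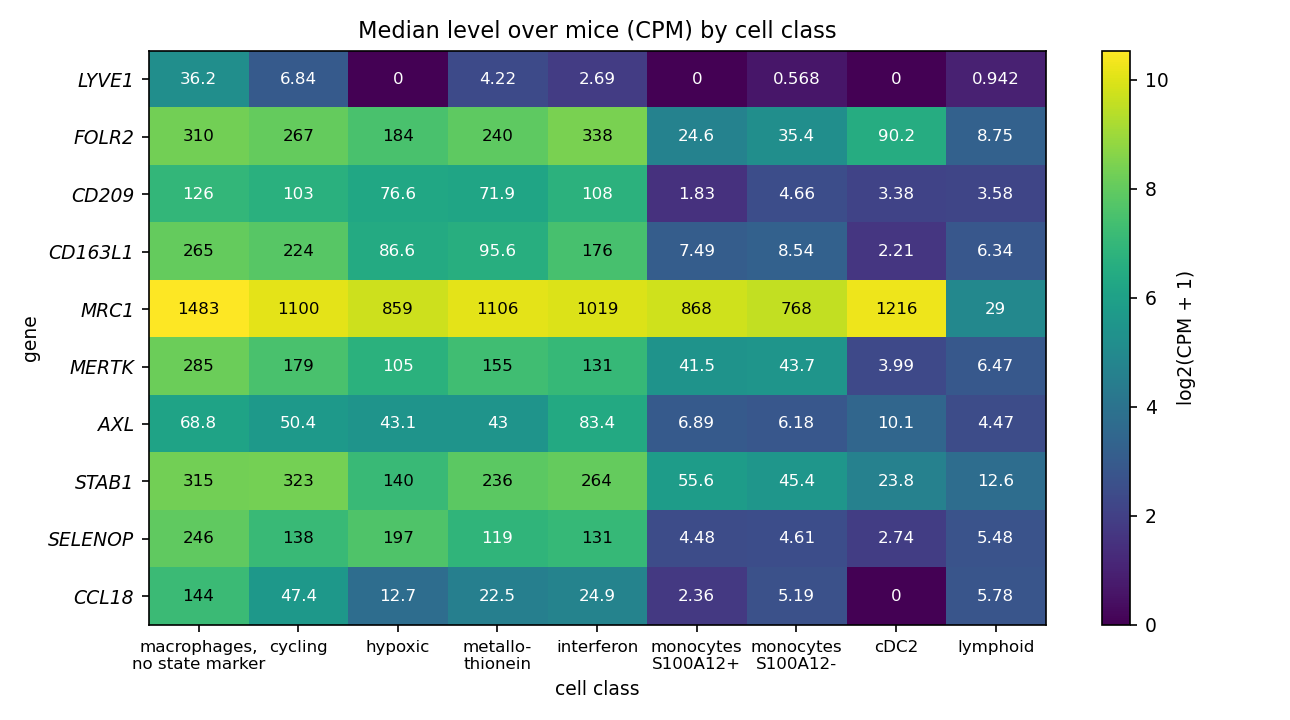
Median over mice of the CPM of each gene in 9 cell classes (numbers in the cells, colors on the scale log2(CPM + 1)), over mice with at least 10 cells of the class. LYVE1 and CCL18 were highest in macrophages without state markers, at 36.2 and 144 CPM, whereas MRC1 was also at 1216 CPM in cDC2 and at 868 and 768 CPM in monocytes with and without S100A12 UMIs.

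The resident macrophage receptors were tested in macrophages against monocytes of the same mice, which compares differentiated cells with the class they can arise from. LYVE1 (ENSG00000133800) ranged from 6.74 to 128 CPM over the macrophages of 14 mice (median 25.2) and from 0 to 3.98 over the monocytes (median 1.1). The groups did not overlap, and macrophages of different mice spanned a wide range. FOLR2 (ENSG00000165457) ranged from 194 to 372 CPM in macrophages (median 284) and from 14 to 45.4 in monocytes (median 29.3). CD209 (ENSG00000090659) ranged from 60.2 to 135 CPM in macrophages and from 0 to 11.3 in monocytes, while CLEC4M, its close paralog, was at 0.769 CPM or less in each macrophage state of both reactions. CD163L1 (ENSG00000177675) ranged from 130 to 375 CPM in macrophages and from 0 to 16.6 in monocytes. In contrast, MRC1 (ENSG00000260314) overlapped, with 1114 to 1763 CPM in macrophages and 575 to 1287 in monocytes, although it was higher in macrophages in 14 of 14 mice.

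Among the efferocytosis receptors, MERTK (ENSG00000153208) ranged from 120 to 393 CPM in macrophages (median 243) and from 26.4 to 104 in monocytes (median 42.7). AXL (ENSG00000167601) ranged from 27.7 to 84.9 CPM in macrophages (median 59.9) and from 2.89 to 18.6 in monocytes (median 7.53). STAB1 (ENSG00000010327) ranged from 195 to 386 CPM in macrophages (median 302) and from 41.7 to 90.1 in monocytes (median 47.9). The macrophage values of these 3 receptors lay above all monocyte values. The secreted products did not overlap either, as SELENOP (ENSG00000250722) ranged from 91.8 to 365 CPM in macrophages and from 1.48 to 27.8 in monocytes, and CCL18 (ENSG00000275385) from 51.5 to 459 CPM against 1.40 to 29.5. In all, 9 of the 10 genes did not overlap, against 6.28% of all genes tested with every macrophage value above every monocyte value. Because the 10 genes were chosen with earlier results known, this share and those below only give scale. They are not an independent test.

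With the mouse as a block, 10 of 10 genes were higher in macrophages than in monocytes (edgeR quasi-likelihood test, adjusted p under 0.05 over 12492 genes), in a comparison in which 32.4% of all genes tested were called higher. The log2 fold changes were 5.28 for SELENOP (SE 0.17), 5.11 for LYVE1 (SE 0.29), 4.85 for CD209 (SE 0.17), 4.75 for CD163L1 (SE 0.16) and 4.02 for CCL18 (SE 0.25). They were smaller for FOLR2 (3.29, SE 0.10), AXL (2.88, SE 0.16), STAB1 (2.43, SE 0.088) and MERTK (2.34, SE 0.115). MRC1 had a log2 fold change of 0.61 (SE 0.072), with an adjusted p of 9.2e-08. Each gene was higher in 14 of 14 mice.

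**Figure D2:**
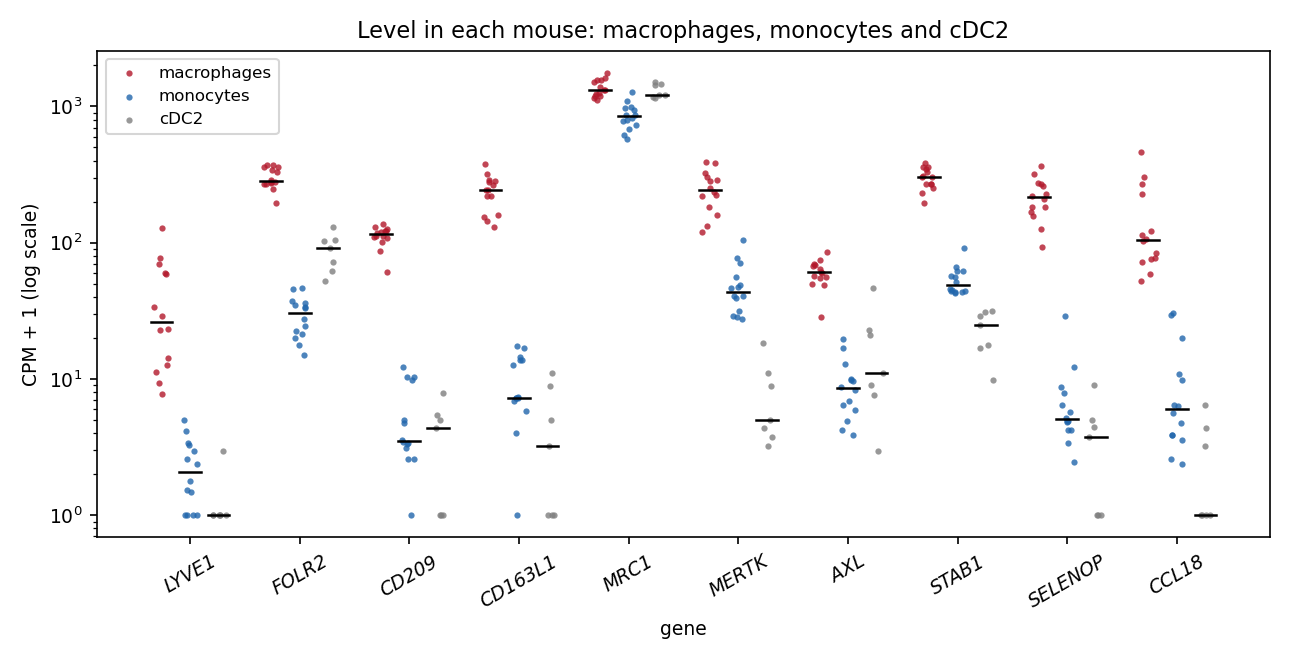
CPM + 1 (log scale) of each gene in the macrophages (red) and monocytes (blue) of 14 mice and in the cDC2 (grey) of the 7 mice with at least 10 such cells; each point is a mouse and each black line the median. Macrophages and monocytes do not overlap for any of the genes except MRC1, and MRC1 in cDC2 lies within the range of macrophages or close to it.

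Lymphoid cells, which should lack these genes, gave a background level that holds free RNA in the droplets and any remaining doublets within a mouse. With each cell thinned to 2000 UMIs, SELENOP was detected in 2.94% of monocytes and 2.51% of lymphoid cells of reaction 1, and in 0.612% and 0.844% in reaction 2. CCL18 was detected in 1.26% of monocytes and 2.20% of lymphoid cells of reaction 1, and in 0.699% and 0.942% in reaction 2. CD209 was detected in 0.699% and 2.20% in reaction 1, and in 0.874% and 0.487% in reaction 2. After thinning, the share of CCL18 in monocytes lay below this background in both reactions. That of CD209 lay below it in reaction 1 and above it in reaction 2. That of SELENOP lay slightly above it in reaction 1 and below it in reaction 2. Before thinning, CCL18 was in 3.49% of monocytes and 2.41% of lymphoid cells of reaction 2. SELENOP was then in 5.01% and 5.46% in reaction 1 and in 3.67% and 2.69% in reaction 2. The order of CCL18 and SELENOP against the background thus depended on thinning. LYVE1 was found in 5 of 715 thinned monocytes of reaction 1 and in 0 of 1144 of reaction 2, where 3 cells would be 0.262%. This limit is on cells with a UMI at that depth, and before thinning 0.524% of these monocytes had a LYVE1 UMI. FOLR2 was detected in 7.55% of monocytes and 3.68% of lymphoid cells of reaction 1, and in 5.07% and 0.909% in reaction 2. STAB1 and MERTK also stood above the background in monocytes, with STAB1 in 13% against 4.55% of lymphoid cells and MERTK in 6.01% against 2.76% in reaction 1. MRC1 was detected in 53.4% and 55.9% of thinned monocytes of the 2 reactions, against 13.8% and 2.76% of lymphoid cells. Before thinning, the median depth was 4360 UMIs in monocytes and 3014 in lymphoid cells of reaction 1, and 11218 and 7111 in reaction 2.

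In cDC2, the CD1C-expressing dendritic cells, MRC1 stood at 1144 to 1512 CPM over 7 mice, close to the 1114 to 1568 CPM in macrophages of the same mice. The log2 fold change was -0.05 (95% interval -0.21 to 0.12, adjusted p = 0.69), and MRC1 was higher in macrophages in 4 of 7 mice. The other 9 genes were higher in macrophages than in cDC2, against 17.6% of all genes tested. FOLR2 had the smallest of these log2 fold changes (1.68, SE 0.15), with 51.8 to 129 CPM in cDC2 and 194 to 372 in macrophages. AXL overlapped between the classes, at 1.99 to 45.2 CPM in cDC2, with a log2 fold change of 1.75 (SE 0.32). MERTK dropped to a median of 3.99 CPM in cDC2 (log2 fold change 5.17, SE 0.21) and STAB1 to 23.8 CPM (3.64, SE 0.18). The log2 fold changes were 6.33 for SELENOP (SE 0.30), 5.94 for CD163L1 (SE 0.27) and 5.15 for CD209 (SE 0.30). LYVE1 had 1 UMI in the cDC2 of each reaction and CCL18 had 3 and 2 UMIs, so fitted fold changes of these genes depend on the prior count. In cDC1, with 69 cells, MRC1 stood at 77.2 CPM in reaction 1 and 10.1 in reaction 2, and MERTK, CD209, LYVE1 and SELENOP had 0 UMIs.

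AXL was also counted in cells outside the myeloid classes. It stood at 150 CPM (95% exact Poisson interval for counting error 106 to 206) in the carcinoma cells of reaction 1 and at 170 CPM in those of reaction 2, which were 51 cells in all, and at 53.7 and 42 CPM in plasmacytoid dendritic cells. CD163L1 was also counted in carcinoma cells, at 47.4 and 49.1 CPM. Of the carcinoma markers, KRT19 stood at 2070 CPM in carcinoma cells of reaction 1, at 13.2 in macrophages and at 30.9 in monocytes, and all 6 markers of the list were at 13.2 CPM or less in macrophages. The endothelial markers VWF, CDH5, PROX1 and CLDN5, relevant to LYVE1 and STAB1 because lymphatic and sinusoidal endothelium express these genes, were at 1.4 CPM or less in macrophages of both reactions.

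Most genes of the further lists followed, but these lists were chosen with earlier results of these data known. Of all genes tested between macrophages and monocytes, 32.4% were higher and 3625 of 12492 were lower in macrophages. Of 14 further efferocytosis genes, 12 could be tested, 10 were higher and 1 was lower in macrophages than in monocytes, with a median log2 fold change of 1.45 against 0.033 over all genes. The largest were ITGB5, an integrin subunit that pairs with the phosphatidylserine-bridging integrin ITGAV (3.46, SE 0.15), and TIMD4, a phosphatidylserine receptor (2.52, SE 0.49). CD36, a scavenger receptor for oxidized lipids, was lower (-1.75, SE 0.13). TYRO3, the remaining TAM receptor, and STAB2 had 19 and 11 UMIs in all macrophages and could not be tested. Of 12 resident macrophage genes, 10 were higher and MARCO was lower (-1.11, SE 0.18), with a median of 2.65. IGF1 had 415 UMIs in macrophages (7.59 CPM) and 0 in monocytes, at least 48.9-fold higher with 3 UMIs over all monocytes in place of 0, and SLC40A1, the iron exporter ferroportin, rose by 4.64 (SE 0.15). Against cDC2, 7 of 10 efferocytosis genes tested and 9 of 12 resident genes were higher, and 2 and 1 were lower. Of all genes tested there, 17.6% were higher and 1648 of 10656 were lower. ITGB5 (3.09, SE 0.31) and ABCA1, a cholesterol exporter (3.08, SE 0.21), led the first list, and RNASE1 (5.72, SE 0.14) and IGF1, which had 1 UMI in cDC2, the second.

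Across 8 macrophage, monocyte and cDC2 classes, the order of the median levels placed a macrophage class first for every gene. Macrophages without state markers came first for LYVE1, CD209, MERTK, CD163L1, SELENOP, CCL18 and MRC1, interferon macrophages for FOLR2 and AXL, and cycling macrophages for STAB1. All neighbours in these orders overlapped in their ranges over mice. For STAB1, cycling macrophages were higher than macrophages without state markers in 7 of 14 mice, and for FOLR2, interferon macrophages were higher in 7 of 12 mice. For CD209, cells without state markers were above interferon macrophages in 6 of 12 mice, so these leading pairs had no consistent order. The step from the lowest macrophage state to monocytes without S100A12 UMIs held in 14 of 14 mice for CD209, SELENOP and CD163L1.

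The macrophage states were each compared with macrophages without state markers of the same mice. In cycling macrophages 9 of 10 genes were lower, against 21.8% of all genes tested. MRC1 fell from a median of 1483 to 1100 CPM, was lower in 14 of 14 mice and did not overlap (log2 fold change -0.69, SE 0.056). LYVE1 went from a median of 36.2 to 6.84 CPM (-1.08, SE 0.29), CCL18 from 144 to 47.4 (-0.97, SE 0.275), SELENOP from 246 to 138 (-0.76, SE 0.16) and MERTK from 285 to 179 (-0.59, SE 0.084). CD209 (-0.45, SE 0.11) and AXL (-0.44, SE 0.11) were lower too. FOLR2 (-0.29, SE 0.067) and CD163L1 (-0.30, SE 0.081) fell least among those called. STAB1 was the exception, with 323 CPM in cycling macrophages and 315 in cells without state markers (-0.13, 95% interval -0.25 to -0.01, adjusted p = 0.078). With cells thinned to 2000 UMIs, the difference of CCL18 was -0.26 and that of CD163L1 -0.12, and neither passed the test. CCL18 also lost the call without the mouse block (-0.52), in reaction 1 by itself (-0.42) and with gate rates doubled (-0.49). LYVE1 lost it without the mouse block (-0.96) and in reaction 1 by itself (-0.77), where AXL (-0.43) and SELENOP (-0.44) lost it too. FOLR2 lost it with gate rates doubled (-0.17), and CD163L1 without the mouse block (-0.26) and in reaction 2 by itself (-0.15). Of the other genes, 1 of 12 efferocytosis genes tested was higher (MFGE8, a bridging protein, 0.84, SE 0.26) and 10 were lower, with NR1H3, which encodes the lipid sensor LXR-alpha, at -1.01 (SE 0.22). Of 12 resident genes, 0 were higher and 10 were lower, CD5L (-1.16, SE 0.18) and SLC40A1 (-0.97, SE 0.11) most. Of all 11442 genes tested, 2060 were higher and 2489 were lower.

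Hypoxic macrophages, gated by UMIs of the glucose transporter gene SLC2A1, ADM and HILPDA, had lower levels of 8 of 10 genes, against 14.1% of all genes tested. CCL18 had a median of 12.7 CPM over 14 mice and was lower in 14 of 14 (log2 fold change -2.75, SE 0.30). MERTK fell from a median of 285 to 105 CPM (-1.40, SE 0.15), CD163L1 from 265 to 86.6 (-1.44, SE 0.20) and STAB1 from 315 to 140 (-0.88, SE 0.13), and each was lower in 14 of 14 mice. LYVE1 was at 0 to 74.2 CPM with a median of 0 (-1.96, SE 0.38). These values rest on 4 UMIs in reaction 1 and 22 in reaction 2. Before thinning, LYVE1 was in 3.10% of hypoxic cells of reaction 1, against 4.83% of cells without state markers. In reaction 2 it was in 5.83% against 10.0%. The LYVE1 call was lost without the mouse block (-1.83). CD209 (-0.74, SE 0.19), MRC1 (-0.69, SE 0.10) and FOLR2 (-0.57, SE 0.12) were also lower. AXL had a log2 fold change of -0.21 (95% interval -0.67 to 0.25, adjusted p = 0.54) and SELENOP one of -0.47 (-0.86 to -0.08, adjusted p = 0.070). SELENOP passed with thinned cells (-0.57), with all genes that have at least 1 UMI (-0.58), in reaction 2 by itself (-0.95) and without either of 2 single mice. Of the other genes, CD5L (-2.56, SE 0.42), IGF1 (-2.13, SE 0.66) and PROS1 (-1.04, SE 0.22) fell while RNASE1, a secreted ribonuclease, rose (0.66, SE 0.11). ABCA1 (1.15, SE 0.14) and NR1H3 (0.94, SE 0.30) were higher. In all, 2 of 10 efferocytosis genes tested rose and 5 fell, and 1 of 12 resident genes rose and 6 fell. Of all 10184 genes tested, 1164 were higher and 1439 were lower. The median over all genes was -0.11.

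**Figure D3:**
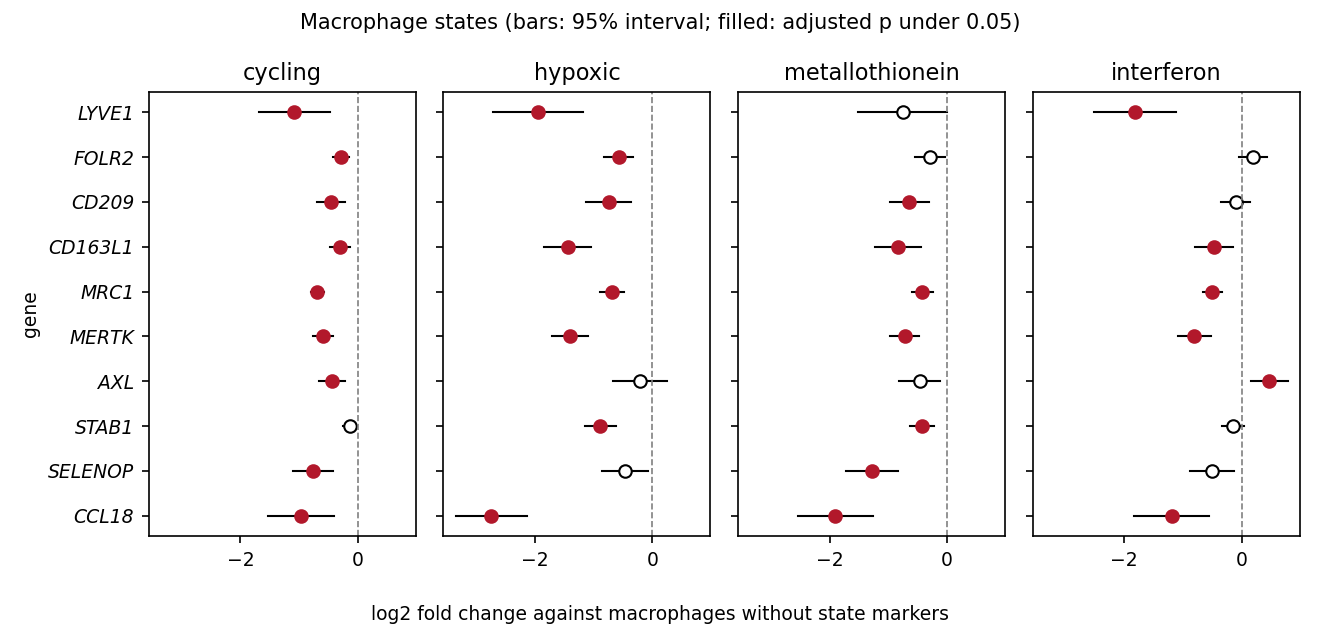
Log2 fold change of each gene in 4 macrophage states against macrophages without state markers, with the mouse as a block (14 mice, 12 for the interferon state); bars are 95% intervals and filled points have an adjusted p under 0.05. CCL18, MERTK, MRC1 and CD163L1 were lower in all 4 states, and AXL in the interferon state was the only filled point above 0.

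In metallothionein macrophages 7 of 10 genes were lower, against 3.48% of all genes tested. CCL18 (-1.90, SE 0.315) and SELENOP (-1.28, SE 0.22) changed most, followed by CD163L1 (-0.83, SE 0.195), MERTK (-0.72, SE 0.12), CD209 (-0.64, SE 0.16), MRC1 (-0.42, SE 0.088) and STAB1 (-0.42, SE 0.10). SELENOP went from a median of 246 to 119 CPM and was lower in 12 of 14 mice. LYVE1 (-0.75), FOLR2 (-0.28) and AXL (-0.46) did not pass the test, although LYVE1 passed by DESeq2 (-2.08) and with gate rates doubled (-1.42). With thinned cells, CD209, MERTK and STAB1 did not pass either, leaving 4, against 115 of all 4670 genes tested that were lower. MARCO, a scavenger receptor, rose (1.60, SE 0.17), and IGF1 fell (-1.78, SE 0.52). In all, 0 of 11 efferocytosis genes tested rose and 5 fell, ITGB5 (-0.63, SE 0.14) and PROS1 (-0.65, SE 0.18) most, and 1 of 12 resident genes rose and 6 fell. Of all 11496 genes tested, 169 were higher and 400 were lower.

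In interferon macrophages 5 of 10 genes were lower and 1 was higher, against 6.42% and 7.14% of all genes tested. LYVE1 had a median of 2.69 CPM against 27.9 in cells without state markers of the same 12 mice and was lower in 12 of 12 (log2 fold change -1.82, SE 0.345). Pooled over mice, interferon macrophages held 3 LYVE1 UMIs in reaction 1 (2.31 CPM) and 48 in reaction 2 (24.35 CPM). Pooled cells without state markers stood at 42.4 and 55.1 CPM. The LYVE1 call was lost without the mouse block (-1.31). CCL18 (-1.19, SE 0.31), MERTK (-0.81, SE 0.14), MRC1 (-0.49, SE 0.076) and CD163L1 (-0.47, SE 0.16) were also lower. The call of CCL18 was lost without the mouse block (-0.87), in reaction 2 by itself (-0.83) and with gate rates doubled (-0.68). The call of CD163L1 was lost by DESeq2 (-0.49), without the mouse block (-0.43), in reaction 2 by itself (-0.29), with gate rates doubled (-0.55) and without any of 8 single mice, and the number of genes lower was 4 to 6 with 1 mouse left out. AXL went the other way, with a median of 83.4 CPM against 68.8, higher in 9 of 12 mice (0.47, SE 0.15, adjusted p = 0.035). This call was lost under several alternatives, among them leaving out any of 8 single mice, thinned cells (0.27) and each reaction by itself. FOLR2 (0.20, adjusted p = 0.30), CD209 (-0.10, adjusted p = 0.66), STAB1 (-0.14, adjusted p = 0.32) and SELENOP (-0.50, adjusted p = 0.065) did not pass the test, although SELENOP passed with thinned cells (-0.91). Among the other genes, 0 of 10 efferocytosis genes tested rose and 3 fell, CD36 (-0.79, SE 0.14) and ITGB5 (-0.46, SE 0.15) most, and 6 of 12 resident genes fell, COLEC12 (-0.93, SE 0.10) and MARCO (-0.77, SE 0.24) most. Inflammatory macrophages were too few for a test, as 1 mouse reached 10 cells. In the 62 inflammatory cells, MERTK stood at 40.6 CPM in reaction 1 and 72.9 in reaction 2. AXL stood at 66.8 and 94.3 CPM in these cells, against 63.1 and 64.7 in cells without state markers. CD209 stood at 97.9 and 116 CPM, against 124 and 128. A single mouse gave 28 of the 62 cells, and these levels were not tested.

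LYVE1 UMIs were found in 358 macrophages, and their share ranged from 2.38% to 19.3% over the 14 mice (median 4.85%). A single cell held up to 59 LYVE1 UMIs in each reaction. The other 9 genes were compared between macrophages with and without LYVE1 UMIs in the 13 mice with at least 10 of each. Here 4 genes were higher, against 4.81% of all genes tested, and 2 were lower, against 7.08%.

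CCL18 differed most, at 299 to 2723 CPM in LYVE1-positive macrophages (median 1261) and 13.8 to 78.3 in the others (median 38.4). The groups did not overlap, and the log2 fold change was 5.20 (SE 0.29). LYVE1-positive cells were 4.35% of the macrophages of reaction 1 and held 74.1% of their CCL18 UMIs, and in reaction 2 they were 8.57% and held 80.8%. SELENOP was higher in 12 of 13 mice, with a median of 551 CPM against 181 (1.52, SE 0.195). FOLR2 was higher in 13 of 13 mice, with 610 against 271 CPM (0.94, SE 0.11), and so was MRC1, with 1826 against 1265 CPM (0.45, SE 0.098).

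The TAM receptors were lower in the same cells. AXL had a median of 24.4 CPM in LYVE1-positive macrophages and 63.8 in the others, lower in 12 of 13 mice (-1.29, SE 0.20, adjusted p = 2.4e-05). MERTK had 140 against 257 CPM and was lower in 11 of 13 mice (-0.66, SE 0.15, adjusted p = 0.0023). CD209 (0.39, 95% interval 0.09 to 0.70, adjusted p = 0.086), STAB1 (0.16, -0.05 to 0.37) and CD163L1 (0.12, -0.16 to 0.40) did not pass the test. Detection of LYVE1 selects deeper cells, so cells were also thinned to 2000 UMIs before the split. AXL (-1.87), MERTK (-1.35), CCL18 (4.42), SELENOP (1.77) and FOLR2 (1.05) still passed, and MRC1 (0.35, adjusted p = 0.12) did not. The median log2 fold change over all 8109 genes tested was -0.24 after thinning, against -0.046 in the main fit. After thinning, 203 of all genes were higher and 689 lower. The larger falls of AXL and MERTK were therefore not read as stronger differences. Within macrophages without state markers alone, 4 genes were higher and 2 lower as well, against 520 higher and 780 lower of all 11478 genes tested.

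After thinning, 56.1% of the 82 LYVE1-positive macrophages of reaction 1 had a CCL18 UMI (95% exact binomial interval 44.7% to 67.0%), against 6.36% of the others, and in reaction 2 it was 54.0% of 100 cells against 5.47%. For AXL, the shares were 4.88% against 10.5% in reaction 1 and 4% against 10.7% in reaction 2. For MERTK, they were 18.3% against 27.9% and 15% against 38.2%. These intervals cover counting error only. CCL18 was concentrated in few cells: the 5% of thinned macrophages with most CCL18 UMIs held 89.0% of them in reaction 1 and 92.3% in reaction 2, against 50.7% and 49.5% for SELENOP and 19.0% and 19.5% for MRC1.

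Of the 12 resident macrophage genes, 11 were higher in LYVE1-positive macrophages and none was lower, with a median log2 fold change of 0.98 against -0.046 over all genes. IGF1 (2.94, SE 0.39) and MARCO (2.31, SE 0.21) rose most. Of 12 efferocytosis genes tested, 4 were higher and 1 was lower, with TIMD4 (2.60, SE 0.49) and CD36 (2.07, SE 0.16) first. Of all genes tested, 4.81% were higher and 7.08% lower. ITGAV was lower (-0.70, SE 0.125). The bridging ligand genes PROS1 (0.86, SE 0.16) and GAS6 (0.52, SE 0.15) were higher in the cells with lower AXL and MERTK.

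**Figure D4:**
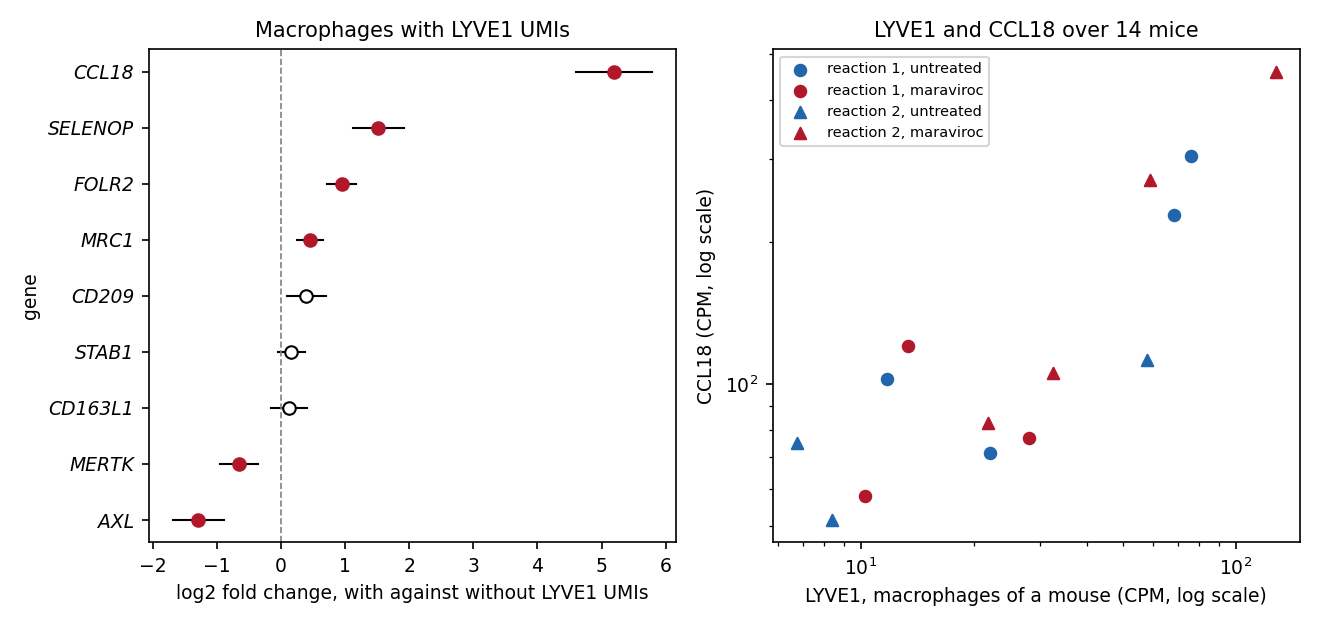
Left, log2 fold change of 9 genes in macrophages with LYVE1 UMIs against those without (13 mice; bars are 95% intervals, filled points have an adjusted p under 0.05). Right, CPM of LYVE1 and CCL18 in the macrophages of each of 14 mice on log scales, where the 4 mice with more than 200 CPM of CCL18 all had at least 59.2 CPM of LYVE1.

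The level of LYVE1 over all macrophages of a mouse was set against that of the other 9 genes, a relation examined after the values were seen. On the scale log2(CPM + 1), CCL18 had a Pearson r of 0.85 over 14 mice (2-sided permutation p = 0.00016, adjusted over 9 relations 0.0014) and a Spearman rho of 0.84 (permutation p = 0.0003, adjusted 0.0027). Without the 2 mice farthest from the median of LYVE1, r was 0.81. It was 0.81 within reaction 1 and 0.88 within reaction 2, and 0.84 in untreated and 0.89 in maraviroc-treated mice. LYVE1-positive cells held 74.1% and 80.8% of the CCL18 UMIs of macrophages in reactions 1 and 2. Both levels therefore rest largely on the same cells, and the relation over mice is not independent of the comparison between cells. The other 8 genes had Pearson r between -0.19 and 0.37, with adjusted p of 0.65 or more. FOLR2, which was higher in LYVE1-positive cells, had an r of 0.09 over mice.

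Maraviroc was compared with no treatment over the macrophages of each mouse, which asks whether the drug moved these receptors. In macrophages, 0 of the 10 genes passed the test, and 0% of all 12053 genes tested were called. By edgeR, 422 of these genes had an unadjusted p under 0.05, none of the 10 among them, and DESeq2 called 0 genes with 318 at an unadjusted p under 0.05. The same held in monocytes (7 of the 10 genes tested; 0% of 9049 genes called, 354 unadjusted; DESeq2 called 1 gene, not among the 10) and in all myeloid cells (0% of 12794 genes called, 463 unadjusted; DESeq2 called 1).

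Of the resident receptors, MRC1 stood at 1318 ± 196 CPM (SD, n = 7) in macrophages of untreated mice and 1427 ± 202 CPM (SD, n = 7) in those of maraviroc-treated mice (log2 fold change 0.10, 95% interval -0.09 to 0.28). FOLR2 stood at 296 ± 39.4 and 308 ± 66.5 CPM (0.09, -0.15 to 0.33), and CD209 at 108 ± 11.7 and 114 ± 25.3 CPM (0.08, -0.19 to 0.36). CD163L1 had 215 ± 63.3 and 259 ± 77.9 CPM (0.24, -0.12 to 0.60). Among the efferocytosis receptors, STAB1 stood at 296 ± 57.2 and 300.2 ± 54.8 CPM (0.01, -0.23 to 0.26). MERTK had 253 ± 105 and 247 ± 68.4 CPM (-0.02, -0.46 to 0.43), and AXL 56.7 ± 8.40 and 62.6 ± 17.3 CPM (0.15, -0.17 to 0.47). The groups overlapped for each of these genes, and the adjusted p, rounded, was 1 for all 10.

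The intervals were widest for the genes that few cells carry. LYVE1 stood at 6.74 to 76.1 CPM in untreated mice (median 22.2) and 10.3 to 128 CPM in maraviroc-treated mice (median 28.2), with a log2 fold change of 0.16 (95% interval -1.25 to 1.58). CCL18 stood at 51.5 to 305 CPM (median 103) and 57.9 to 459 CPM (median 106), with a log2 fold change of 0.27 (-0.93 to 1.48). SELENOP stood at 198 ± 44.8 and 237 ± 96.4 CPM (0.27, -0.25 to 0.79). A change of LYVE1 or CCL18 by a factor of 2, which is 1 on the log2 scale, lay within these intervals.

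**Figure D5:**
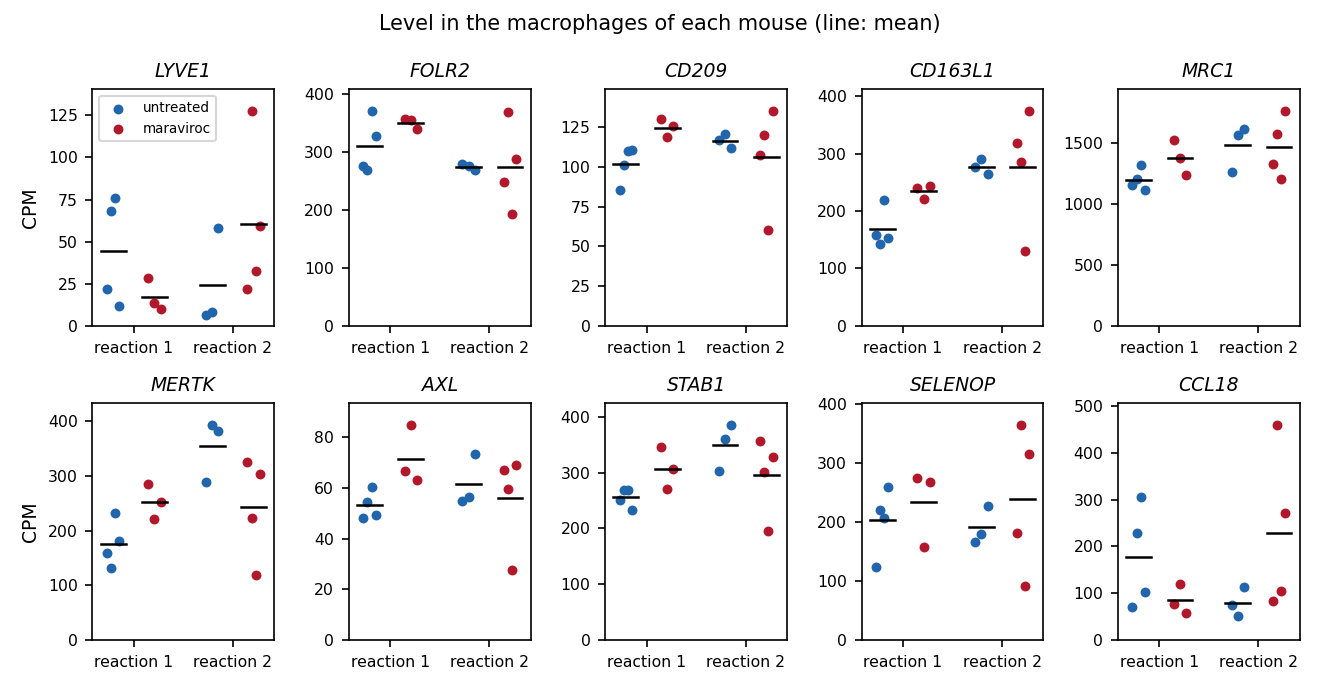
CPM of each gene in the macrophages of each mouse by reaction and treatment (untreated blue, maraviroc red), with lines at the mean. In reaction 1, AXL, CD209, CD163L1 and STAB1 of the 3 maraviroc-treated mice lie above those of the 4 untreated mice (narrowly for CD163L1 and STAB1), and in reaction 2 all 10 genes overlap.

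Within reactions the differences went apart. The part of the reactions' unequal depth, mixed cells and hashtag doublets in this was not tested. In reaction 1, 4 of the 10 genes had every maraviroc-treated mouse above every untreated mouse, against 6.32% of all genes tested there. The separation was narrow for STAB1, whose nearest mice were at 269.0 CPM (877 UMIs) and 269.8 CPM (585 UMIs). It was also narrow for CD163L1, at 219.0 CPM (714 UMIs) and 220.4 CPM (478 UMIs). AXL stood at 48.3 to 60.4 CPM in untreated mice and 63.0 to 84.9 in maraviroc-treated mice of reaction 1 (log2 fold change 0.38, SE 0.13), CD209 at 85.7 to 110 and 119 to 130 (0.26, SE 0.11), CD163L1 at 143 to 219 and 220 to 244 (0.45, SE 0.13) and STAB1 at 232 to 269 and 270 to 345 (0.23, SE 0.10). MERTK also had a higher fitted value (0.49, SE 0.17), whereas CCL18 (-1.12, SE 0.45) and LYVE1 (-1.37, SE 0.60) had lower ones. An unadjusted p under 0.05 was found for these 7 genes, against 7.48% of all genes tested, and the smallest adjusted p was 0.59.

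In reaction 2, the groups overlapped for all 10 genes, and 1 gene, CCL18, had an unadjusted p under 0.05, against 4.71% of all genes tested. There it took the opposite sign (log2 fold change 1.57, SE 0.55, adjusted p = 0.96), with 51.5 to 112 CPM in untreated and 82.6 to 459 CPM in maraviroc-treated mice. LYVE1 had a value of 1.37 (SE 0.76), MERTK one of -0.51 (SE 0.27) and AXL one of -0.07 (SE 0.24). The difference between the reactions was tested as an interaction. Its log2 estimates were 2.70 for CCL18 (unadjusted p = 0.0045), 2.75 for LYVE1 (0.027) and -0.99 for MERTK (0.011), with adjusted p of 0.56 to 0.57, and 0 genes passed over all 12487 tested, 1054 at an unadjusted p under 0.05. The maraviroc-treated mouse with the fewest macrophages, 143, belonged to reaction 2 and had the lowest AXL (27.7 CPM), MERTK (120), CD209 (60.2), STAB1 (195), FOLR2 (194) and SELENOP (91.8) of all 14 mice, and the lowest CD163L1 (130). Without it, the fitted value of MERTK was 0.11 and that of AXL 0.25, and no gene passed.

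In monocytes, where 7 genes could be tested, MERTK was at 26.4 to 76.7 CPM in untreated and 27.9 to 104 CPM in maraviroc-treated mice (log2 fold change 0.29, SE 0.26) and MRC1 at 575 to 1092 and 614 to 1287 CPM (-0.06, SE 0.15), each with an adjusted p of 1 after rounding. Within reaction 1, MERTK in monocytes was at 26.4 to 45.6 CPM in untreated and 47.7 to 104 CPM in maraviroc-treated mice (0.98, SE 0.27, adjusted p = 0.48), and in reaction 2 it took the opposite sign (-0.20, SE 0.29). Of the other genes of the pathway, 0 of 12 efferocytosis genes and 0 of 12 resident genes tested in macrophages passed, with medians of -0.02 and 0.01 against 0.0045 over all genes.

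Patterns were compared by the Pearson correlation of log2(CPM + 1) over 11 cell classes in each of 2 reactions (22 points, 9510 genes). The nearest gene was another member for LYVE1, CD209, SELENOP and CCL18. For the other members, neither of the 2 nearest genes was a member. CD209 and SELENOP were nearest to each other (r = 0.98), the gene nearest to LYVE1 was CD163L1 (0.93), and the gene nearest to CCL18 was LYVE1 (0.89). AXL was nearest to ITGB5 (0.94) and TGFB2 (0.94), STAB1 to GPR34 and DAB2 (0.98 each), MRC1 to ARHGEF10L and CSF1R (0.97 each), FOLR2 to NPC2 (0.97) and ETV5 (0.96), and MERTK to SNX24 and TMEM150B (0.96 each). MMP14 came among the nearest for CD209 (0.97), CD163L1 (0.96) and SELENOP (0.96), with PLCH1 for CD163L1 (0.96), ABCC5 for LYVE1 (0.91) and ESR1 for CCL18 (0.89). These values describe classes that share reactions and depth and are not tests.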

How the data were processed

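The deposited files hold raw UMI counts per human gene (GRCh38) and per hashtag for the barcodes that the authors called as cells with Cell Ranger 9.0.1, without normalization; the study's own object was built with Seurat 5.1.0. The treatment of each mouse was read from the hashtag names in the feature lists, and the labels give the organism as mouse although human genes were counted. Reaction 1 held 29120 barcodes (133089612 UMIs) and reaction 2 held 13582 (175447534 UMIs). Barcodes with 601 to 6000 genes and under 12.5% mitochondrial UMIs were kept (37806), and singlets were called with HTODemux on centered log-ratio values (Seurat 5.3.0, R 4.3.3, positive quantile 0.99), which also removes doublets between mice; doublets within a mouse remain except for mixed lymphoid and myeloid cells.

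Each cell took the first class it met in a fixed order: lymphoid, plasmacytoid dendritic, mast and carcinoma cells, dendritic cells, macrophages (at least 3 C1Q UMIs and 5 per 10000 UMIs, then by state) and monocytes. The 10 genes were in no gate. UMIs were summed per mouse and class (at least 10 cells, at least 3 mice) and tested with edgeR 4.0.16 (TMM, filterByExpr, quasi-likelihood test, Benjamini-Hochberg adjustment over all genes tested), with the reaction as a term for treatment and the mouse as a block between classes. DESeq2 1.42.0 was an alternative. Macrophage sums held 2091359 to 6695701 UMIs per mouse. Levels between different genes were not compared, because 3' UMI counts differ in capture. Intervals of levels are exact Poisson or binomial at 95% and cover counting error only. The fits and the gates were tested on simulated counts. Permutation tests used scipy 1.17.1 under Python 3.11.15.

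The 10 genes and the gene lists were chosen with earlier results of these data known. All 10 genes are named in each tested comparison between macrophage, monocyte and cDC2 classes and in the treatment test over all macrophages. For treatment in monocytes or within a reaction, and in the inflammatory state, only some of the 10 are named. Also named are, of each list, the 2 called genes with the largest changes and, for each gene, its 2 nearest by correlation. List genes named beyond this rule were chosen after their values were seen. Mixed cells kept, macrophages without state markers alone and the relation of LYVE1 to other genes over mice were added after seeing the data. Human gene sequences and coordinates were not used here. Results of 1 gene of the lists are not reported here by name.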

Additional observations from a re-analysis of the deposited data

Results flagged for a closer look

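Among the 20 groups of 7 mice examined (10 genes in macrophages, by treatment), 2 held a mouse far from the others, and chance gives such a result in about 1 of 20 groups. In maraviroc-treated mice, LYVE1 stood at 128 CPM in mouse 2 of reaction 2, with the next mouse at 59.2 CPM, a gap of 58.4% of the range of the group. That mouse also had the highest share of LYVE1-positive macrophages (19.3%) and 459 CPM of CCL18. CD209 stood at 60.2 CPM in mouse 3 of reaction 2, with the next maraviroc-treated mouse at 108 CPM, a gap of 63.1% of the range. That mouse had 143 macrophages, the fewest of all mice, and the lowest AXL, MERTK and STAB1. The part of cell number in these values was not tested.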

How the results depend on the processing

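Treatment: no gene of the 10 passed the test in macrophages under any setting run, but the sign of small values turned. LYVE1 was -1.37 in reaction 1 by itself and -0.011 by DESeq2, and -0.30 to 0.46 with 1 mouse left out. CD209 was -0.092, AXL -0.074 and STAB1 -0.21 in reaction 2 by itself. MERTK was 0.49 in reaction 1 by itself and 0.0015 with the stricter hashtag quantile, and -0.12 to 0.11 with 1 mouse left out. STAB1 was -0.060 to 0.091 and CCL18 -0.085 to 0.60 with 1 mouse left out, and CCL18 was -1.12 in reaction 1 by itself. With all genes that have at least 1 UMI, 3 genes were called in macrophages and 39 in monocytes, and reaction 1 by itself called 2 in monocytes.

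Classes: MRC1 against cDC2 was 0.065 with all genes and 0.11 with thinned cells. CD209 in interferon macrophages was 0.014 with mixed cells kept, and CD163L1 in LYVE1-positive cells was -0.056 in macrophages without state markers alone. The number of the genes called lower was 5 in cycling macrophages in reaction 1 by itself (9 in all mice), 5 in hypoxic macrophages with gate rates doubled (8), and 3 in reaction 1 by itself and 4 with thinned cells in metallothionein macrophages (7). Over all genes tested in these fits, 1351 of 10574, 414 of 10381, 49 of 10673 and 115 of 4670 were lower, in the same order. In interferon macrophages the number called lower was 2 without the mouse block and 3 in reaction 2 by itself or with gate rates doubled (5). Over all genes tested, 462 of 8060, 222 of 9270 and 671 of 10111 were lower in these fits. The number higher was 0 without the block, in each reaction by itself, with all genes, with gate rates doubled and with thinned cells, and 0 to 1 with 1 mouse left out (1). In LYVE1-positive cells, 1 gene was lower without the mouse block (2), against 577 of all 9755 genes tested.

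Over all genes, thinned cells called 3935 between macrophages and monocytes (7667), 1261 against cDC2 (3521), 1664 in cycling (4549), 925 in hypoxic (2603), 183 in metallothionein (569), 447 in interferon (1371) and 892 in LYVE1-positive macrophages (1495). Reaction 1 by itself called 4950, 2609, 1194, 70, 599 and 592 of these without cDC2, which could not be fitted there, and fewer cells and mice entered each. With gate rates doubled, 862 were called in hypoxic macrophages. With all barcodes within the limits, hashtag doublets and negatives included, CD163L1 in monocytes of reaction 1 was 19.1 CPM, LYVE1 in cDC2 0.92 and STAB1 in cDC2 36.9. Of the other values between classes and of levels, 613 stayed the same, 46 lost and 11 gained the call. For fold changes, the same means an unchanged direction and call, and for levels a shift smaller than the SD over mice. With 1 mouse left out, 843 fold changes kept direction and call, 17 lost and 7 gained the call. The cause was not tested. The classes were compared within mice, and untreated and maraviroc-treated mice are different mice with no pairing. Thinning left out 881 macrophages of reaction 1 and 5 of reaction 2 as too shallow.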
